A study of Mus musculus with 4 samples.

Results

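A set of 9 genes of the interferon gamma (IFN-γ) response were followed in human immune cells carried by humanised mice: the guanylate-binding proteins GBP1, GBP2, GBP3, GBP4 and GBP5, the transcription factor IRF1, the inhibitor SOCS1 and the receptor chains IFNGR1 and IFNGR2. These 9 members were chosen by name, out of 33538 human genes in the files, and all 9 were detected in each of the 4 libraries. They were read in barcodes with over 50% of their unique molecular identifiers (UMIs) on human genes. The Ensembl identifiers were ENSG00000117228 for GBP1, ENSG00000162645 for GBP2, ENSG00000117226 for GBP3, ENSG00000162654 for GBP4 and ENSG00000154451 for GBP5. IRF1 was ENSG00000125347, SOCS1 ENSG00000185338, IFNGR1 ENSG00000027697 and IFNGR2 ENSG00000159128.

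All hosts were huNSG-SGM3 mice (NOD.Cg background with the alleles Prkdcscid and IL2rgtm1Wjl, and the transgene Tg(CMV-IL3,CSF2,KITLG)1Eav/MloySzJ), which lack their own lymphocytes, carry human cytokine genes under the CMV promoter and had been engrafted with CD34+ stem cells from human cord blood. In all, 4 single-cell RNA-seq libraries were analysed, 1 each of blood from naïve mice, blood from sham mice (T9 laminectomy alone), blood after spinal cord injury (SCI) at T9, and the injured spinal cord, with host age labelled as 15 weeks and the operated mice sampled on day 7. Naïve and sham hosts were male, whereas the SCI libraries pooled male and female hosts, so sex and injury cannot be told apart. Live huCD45+ cells were sorted by FACS in every case, and cells of several animals were pooled. The cord cells were also digested with papain for 20 min at 37 °C and enriched with magnetic beads, so tissue and handling cannot be told apart, and the blood was not handled in that way. With 1 library per group no difference could be tested against the spread between replicates, and each 95% interval given here (exact Poisson for a level, exact binomial for a share or a ratio) covers counting error only.

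IFN-γ is made mainly by T and NK cells and binds a receptor built of IFNGR1, which contacts the ligand, and IFNGR2, which is needed for signalling. The kinases JAK1 and JAK2 at the receptor pass the signal on to the nucleus, where IRF1 and the GBPs are switched on. The GBPs are large GTPases that act in the defence of the cell against intracellular pathogens. SOCS1, itself induced by IFN-γ, closes the loop by inhibiting the JAK kinases. Many of these genes also respond to type I interferons, and SOCS1 and IRF1 respond to other cytokines too. Human and mouse IFN-γ do not act across species, so the human cells of these mice depend on human IFN-γ.

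After filtering, 6326 cells remained from naïve blood, 4646 from sham blood, 5934 from SCI blood and 118 from the SCI cord, out of 231 to 8124 barcodes and 4206461 to 36487994 total UMIs per library. Cord cells were deeper, with a median of 9331 UMIs against 3698.5 to 5231 in blood. PTPRC, which encodes CD45, had a UMI in 96.6% to 99.4% of the cells of a library, and pairs of libraries shared 0 to 16 barcodes. Cells fell into 18 clusters, built without the member genes and without the other interferon genes studied here, and 16 clusters were named from marker genes as 11 classes. The B-like class joined 4 clusters and the basophil or mast-like class joined 2. Plasma-like cells were nearly all from naïve blood, at 388 against 3 in sham and 3 in SCI blood. Free RNA added little to the members, since human UMIs of each member occurred in 0% to 0.36% of the blood barcodes with at least 90% mouse UMIs and, in the cord, in 0% to 3.26% of 92 such barcodes, which had a median of 26252.5 UMIs.

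The members differed strongly between cell classes of the blood. Levels are given as CPM, the count per 1000000 human UMIs of a class outside ribosomal protein and mitochondrial genes, averaged over the 3 blood libraries with the lowest and highest library in brackets; 3′ UMI counts score 1 molecule once whatever its length, so levels of different genes can be set side by side, with the limit that reads of the GBPs, which are alike in sequence, may be split between them with error. SOCS1 had the widest spread, from 1038 CPM (890 to 1256) in basophil or mast-like cells to 8.89 CPM in naïve-blood plasma-like cells, a 117-fold range. IFNGR2 followed with a 99.7-fold range, whose lower end rests on few UMIs. IRF1 was the most even member, with 596 CPM in NK-like and 209 CPM in plasma-like cells, a 2.85-fold range, and GBP3 was next at 4.41-fold.

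GBP2, the most abundant GBP, was highest in Treg-like cells (the FOXP3-led cluster of regulatory T cells), at 471 CPM (423 to 511). Cytotoxic T-like cells followed at 289 CPM (248 to 334) and cycling cells at 288 CPM (239 to 319), and these neighbours overlapped across libraries. B-like cells held 164 CPM, monocyte-like cells 72.6 CPM and basophil or mast-like cells 63.4 CPM. Treg-like cells exceeded CD4 T-like cells in GBP2 in each blood library, by 1.06 (95% interval 0.95 to 1.17), 0.88 (0.79 to 0.98) and 0.69 (0.57 to 0.81) on the log2 scale in naïve, sham and SCI blood.

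GBP5, which takes part in NLRP3 inflammasome assembly, was the member most restricted to 1 T cell class. In Treg-like cells it reached 222, 296 and 211 CPM in the naïve, sham and SCI libraries. CD4 T-like cells held 16.1, 23.5 and 25.5 CPM in the same order, so the classes did not overlap in any library and the mean ratio was 11.2-fold. Next came cytotoxic T-like cells at 70.9 CPM (34.2 to 101), and the lowest class was basophil or mast-like at 6.55 CPM. By fold, GBP5 ranked in the top 10 of the genes that set the Treg-like cluster apart, although it had not been used to build the clusters.

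GBP1 was highest in cycling cells at 260 CPM (203 to 295) and in Treg-like cells at 217 CPM (169 to 241), which overlapped, and lowest in plasma-like cells at 10.0 CPM. GBP4 was spread over lymphocytes, with 113 CPM in cytotoxic T-like, 109 CPM in B-like and 104 CPM in CD8 T-like cells, and it was nearly missing from basophil or mast-like cells at 4.59 CPM and from plasma-like cells at 2.28 CPM. GBP3 was highest in CD8 T-like cells at 113 CPM (94.6 to 127) and cytotoxic T-like cells at 112 CPM (83.0 to 147), and lowest in monocyte-like cells at 25.6 CPM. As means of the blood libraries all 5 GBPs were thus higher in T-like classes than in monocyte-like cells, with the exception of GBP5 in CD4 T-like and naive T-like cells, at 21.7 and 20.0 CPM against 25.3 CPM.

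Both receptor chains followed another order. IFNGR1 was highest in B-like cells at 212 CPM (186 to 229) and in monocyte-like cells at 200 CPM (158 to 234), which overlapped, and stood at 42.4 CPM (40.6 to 44.7) in Treg-like and 33.0 CPM (24.2 to 37.8) in cycling cells. IFNGR2 showed the same 2 leading classes, with 226 CPM (211 to 240) in B-like and 173 CPM (159 to 197) in monocyte-like cells, which did not overlap. T-like cells carried less of the second chain, and cytotoxic T-like cells had the lowest mean, at 2.27 CPM (1.73 to 3.11). That mean rests on few UMIs, and NK-like cells (0 to 30.4 CPM) lay below it in their lowest library. B-like cells exceeded all T-like cells 4.26-fold in IFNGR1 and 9.17-fold in IFNGR2, as means of the 3 libraries.

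**Figure D1:**
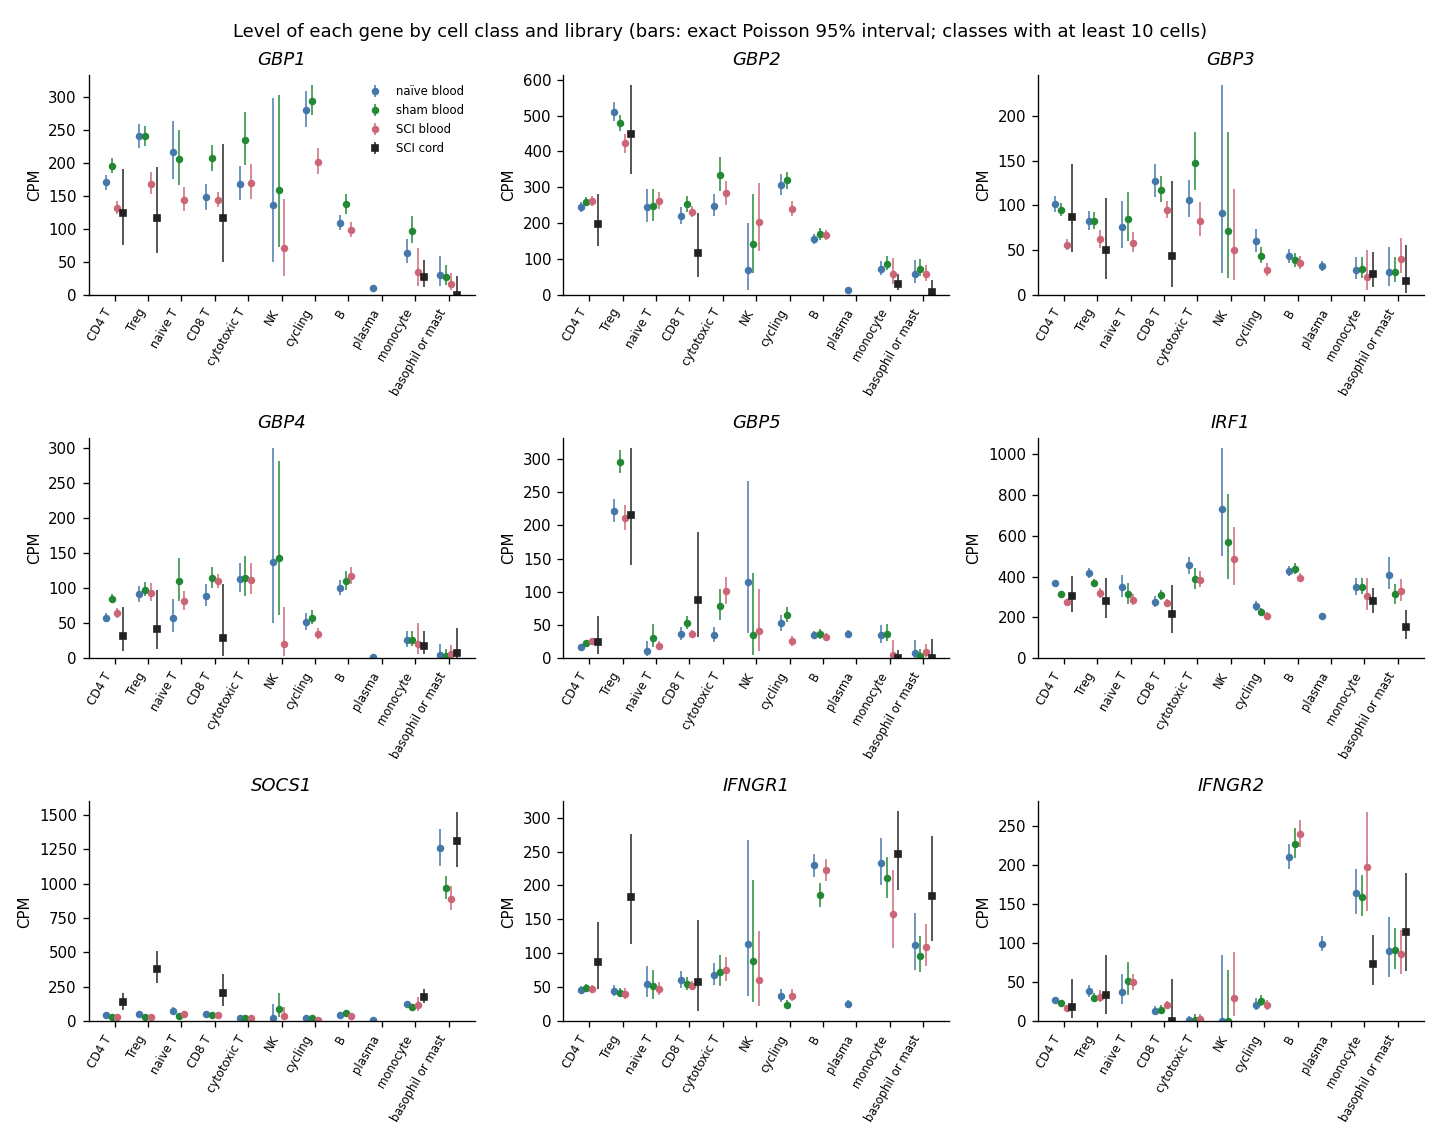
Levels of the 9 members by cell class in the 3 blood libraries and the SCI cord, in CPM, with 1 point per library. SOCS1 stands out in basophil or mast-like cells at 1038 CPM and GBP5 in Treg-like cells at 243 CPM. The mean of IFNGR2 is lowest in cytotoxic T-like cells at 2.27 CPM, on few UMIs.

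SOCS1 in basophil or mast-like cells was higher than in all T-like cells in each library, by log2 ratios of 4.79 (4.59 to 4.996), 4.77 (4.59 to 4.95) and 4.58 (4.39 to 4.77) in the same order of libraries, or 26.3-fold as a mean. Monocyte-like cells came next at 114 CPM and then naive T-like cells at 56.3 CPM. Within the basophil or mast-like class, the larger blood cluster held 1410, 1212 and 1139 CPM of SOCS1 in naïve, sham and SCI blood and the smaller one 625, 655 and 478 CPM. Both clusters were above every other class.

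IFN-γ itself was scarce. IFNG had 69, 86 and 142 UMIs in the naïve, sham and SCI blood libraries, or 3.13, 4.19 and 6.59 CPM. Cytotoxic T-like cells were highest at 40.2 CPM (31.1 to 57.1), an unnamed TRDC-led cluster came next at 20.8 CPM, and naive T-like cells had none. As means of the blood libraries, the class with the most IFNG transcript was therefore the one with the least IFNGR2. That order rests on few IFNGR2 UMIs and did not hold in every library. NK-like cells (0 to 30.4 CPM) and the TRDC-led cluster (0 to 13.2 CPM) both had 0 CPM of IFNGR2 in their lowest library.

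The GBP mixture, subject to the same limit, differed between classes as well. Over all blood cells GBP2 made up 40.2% of the GBP1 to GBP5 UMIs, GBP1 25.9%, GBP4 12.3%, GBP3 11.4% and GBP5 10.3%. GBP5 took 22.3% (95% interval 21.5% to 23.2%) of the GBP UMIs of Treg-like cells against 3.64% (3.29% to 4.02%) in CD4 T-like cells, and its largest share was 36.5% (32.1% to 41.1%) of only 452 GBP UMIs in plasma-like cells. GBP4 took 23.7% in B-like cells and GBP1 took 37.8% in cycling cells, their largest shares in any class. With each cell thinned to 1000 UMIs, so that depth was equal, 53.4%, 57.6% and 48.5% of Treg-like cells in naïve, sham and SCI blood had a UMI of any of the 5 GBPs, compared with 10.5%, 7.69% and 6.11% of basophil or mast-like cells.

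**Figure D2:**
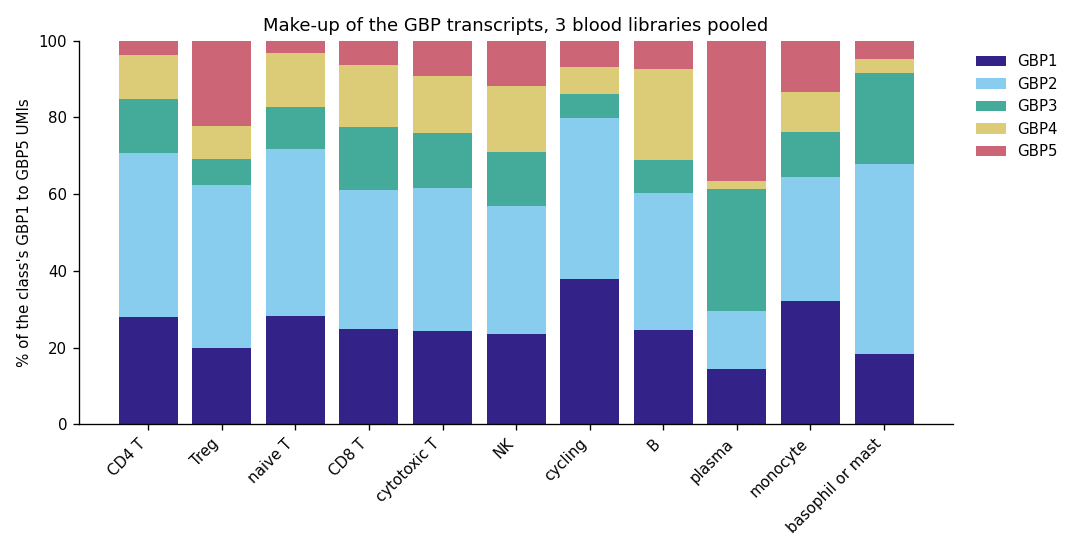
Share of each GBP among the GBP1 to GBP5 UMIs of a class, in percent, with the 3 blood libraries pooled and each bar adding up to 100%. The GBP5 segment is 22.3% in Treg-like against 3.64% in CD4 T-like cells; the plasma-like bar comes almost wholly from naïve blood.

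The effect of the laminectomy was addressed by setting sham against naïve blood. GBP1 stood at 140 CPM in naïve blood and 204 CPM in sham blood, GBP2 at 215 and 283, GBP3 at 71.8 and 79.9, GBP4 at 60.8 and 86.0, and GBP5 at 56.7 and 83.4. All 5 GBPs were thus higher in sham blood over all cells (GBP3 no longer so without plasma-like cells, at -0.03), and their summed level was higher by 0.44 (95% interval 0.40 to 0.47) on the log2 scale, where the median gene of 14534 tested was at 0.07. IRF1 went from 343 to 332 CPM and SOCS1 from 54.4 to 64.7 CPM. Both receptor chains were lower in sham blood, IFNGR1 at 71.0 against 79.4 CPM and IFNGR2 at 54.7 against 74.1 CPM, though IFNGR1 was higher as UMIs per cell (0.18) and IFNGR2 with equal class weights (0.05). No member was past 1.5-fold (0.58 on the log2 scale) in either direction, where 6.77% of all genes with at least 20 counts were past it upward and 6.1% downward.

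Part of that GBP difference went with the plasma-like cells of naïve blood, which are rich in immunoglobulin RNA and poor in GBPs. Without them the summed GBP difference was 0.17, and with equal weight for each class in both libraries it was 0.16. GBP5 stayed at 0.44 without plasma-like cells and GBP1 at 0.25, while SOCS1 moved from 0.25 to -0.02. Within classes, GBP5 was above 0 in 8 of 8 classes with at least 20 UMIs, 4 of them beyond counting error, and GBP4 in 8 of 8, 3 of them beyond counting error. Treg-like cells had 0.41 (0.27 to 0.56) for GBP5, CD4 T-like cells 0.54 (0.15 to 0.94) and cytotoxic T-like cells 1.18 (0.52 to 1.87). In Treg-like cells GBP1 was level between both libraries, at 241 and 241 CPM.

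Blood after SCI was set against naïve blood next. GBP1 was at 141 CPM after SCI against 140 CPM, GBP2 at 251 against 215, GBP3 at 60.04 against 71.8, GBP4 at 82.5 against 60.8 and GBP5 at 51.7 against 56.7. The GBPs therefore did not share a direction, and their summed level differed by 0.11 (0.07 to 0.14), which turned to -0.16 without plasma-like cells and to -0.18 with equal class weights, where GBP1 was at -0.40 and GBP4 at -0.14. IRF1 was lower after SCI at 298 against 343 CPM, a log2 ratio of -0.20 (-0.25 to -0.16), and it lay below 0 in 10 of 10 classes, 6 of them beyond counting error. IFNGR2 was lower at 58.2 against 74.1 CPM, though it was higher with equal class weights, at 0.21. SOCS1 (53.9 against 54.4 CPM) and IFNGR1 (76.4 against 79.4 CPM) stayed within counting error. Again 0 members were past 1.5-fold, against 8.71% of 14542 genes upward and 8.53% downward.

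What injury added to surgery was addressed by SCI against sham blood. GBP5 was lower after SCI at 51.7 against 83.4 CPM, a log2 ratio of -0.69 (-0.80 to -0.58), and GBP1 at 141 against 204 CPM, a ratio of -0.54 (-0.60 to -0.47). GBP3 was at -0.41 (-0.52 to -0.31), GBP2 at -0.17 (-0.23 to -0.12) and GBP4 at -0.06 (-0.16 to 0.04), the only GBP within counting error. The summed GBP level was lower after SCI by 0.33 on the log2 scale, and the value was the same without plasma-like cells, so the difference in that class between libraries did not touch this pair. GBP5 was the 1 member past 1.5-fold downward, where 6.93% of 14502 genes were, and 0 were past it upward, where 5.72% were. Treg-like cells, the class highest in GBP5, were 23.2% of the cells of sham blood and 12.3% of those of SCI blood. They held 1099 of the 1711 GBP5 UMIs of sham blood and 499 of the 1113 of SCI blood. The part of this difference in cell mixture in the GBP5 value over all cells was not tested.

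Across classes GBP1 was the most uniform member of that comparison. It was lower after SCI in 9 of 9 classes, 8 of them beyond counting error, with log2 ratios from -1.41 in monocyte-like to -0.47 in cytotoxic T-like cells. In Treg-like cells GBP1 was at 169 CPM after SCI against 241 in sham blood, and in CD4 T-like cells at 133 against 196 CPM. GBP3 was lower in 8 of 9 classes and GBP4 in 7 of 8. GBP5 was less uniform: Treg-like cells had -0.49 (-0.64 to -0.33) and cycling cells -1.36 (-1.84 to -0.91), while CD4 T-like cells had 0.12 (-0.22 to 0.46) and cytotoxic T-like cells 0.36 (-0.15 to 0.91). IRF1 was lower in 9 of 10 classes, by little, with log2 ratios from -0.23 to 0.09. Both receptor chains had no common direction, with IFNGR1 above 0 in 4 of 9 and IFNGR2 in 4 of 8 classes.

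**Figure D3:**
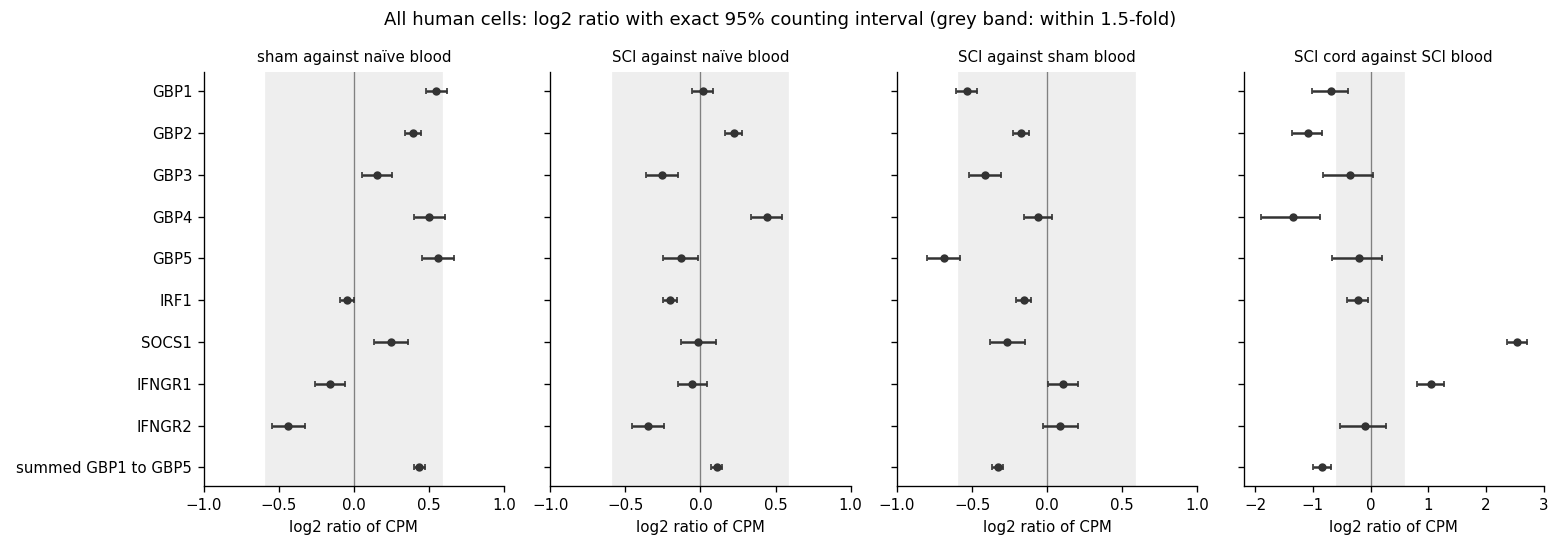
Log2 ratio of CPM of each member and of the summed GBPs over all human cells, in 4 comparisons, with points for the ratio, bars for the exact 95% counting interval and a grey band for ratios within 1.5-fold; the cord panel has a wider axis. Against sham blood, SCI blood is lower in GBP5 (-0.69) and GBP1 (-0.54), and in the cord SOCS1 is at 2.54.

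**Figure D4:**
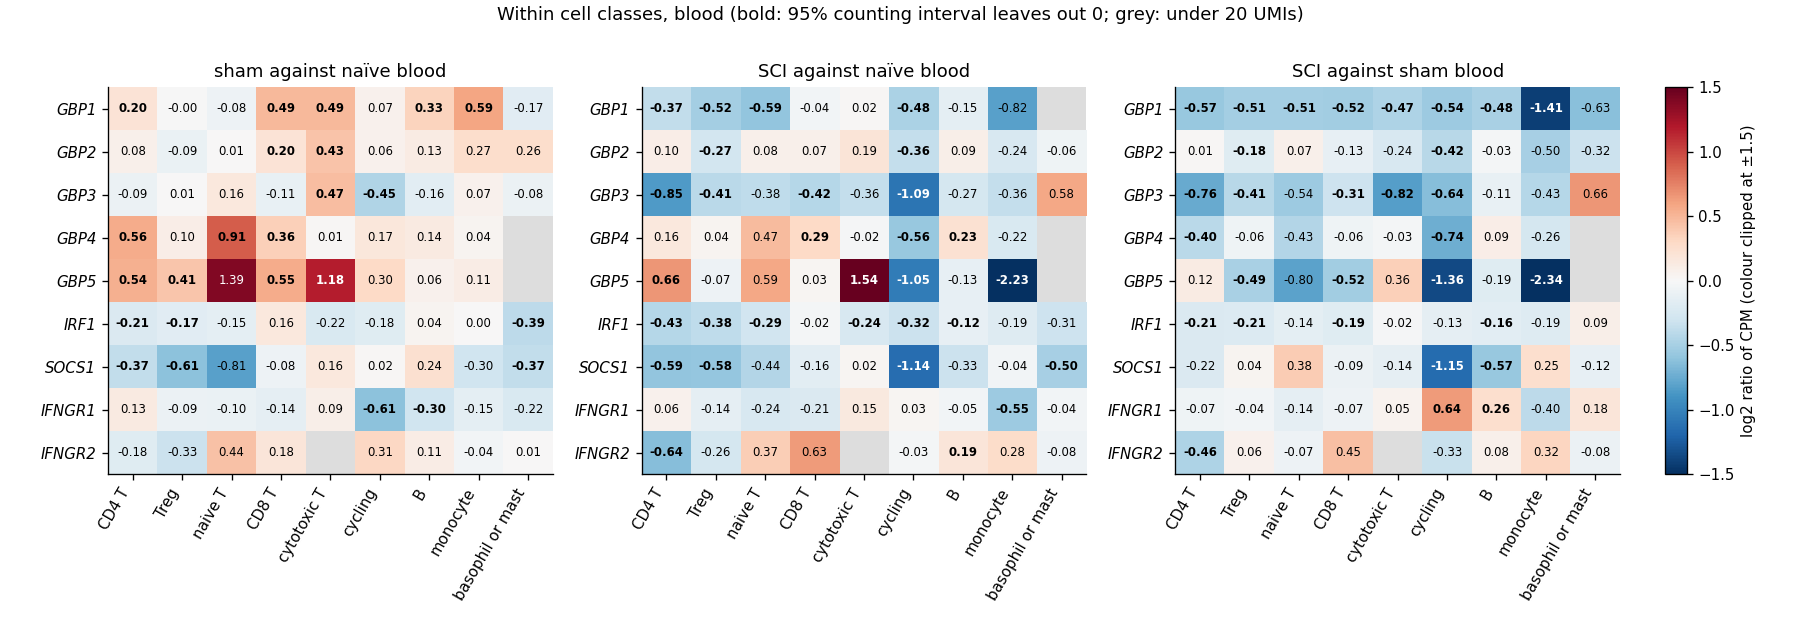
Log2 ratio of CPM of each member within 9 cell classes for the 3 blood comparisons, printed in each cell and coloured up to 1.5 in either direction, in bold where the 95% counting interval leaves out 0 and grey where the pair holds under 20 UMIs. The GBP1 row of SCI against sham blood is below 0 in all 9 classes, from -0.47 to -1.41.

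The ligand IFNG was higher after SCI, with 2.10-fold more in SCI than in naïve blood (log2 ratio 1.07, 0.65 to 1.51) and 1.57-fold more than in sham blood (0.65, 0.26 to 1.06). JAK1 was 437, 495 and 507 CPM and JAK2 23.0, 23.9 and 20.7 CPM in naïve, sham and SCI blood, with JAK1 within counting error between SCI and sham blood. So over all cells of blood after SCI the ligand was higher and GBP1 and GBP5 were lower than in sham blood. Cytotoxic T-like cells, the class with the most IFNG, were 5.64%, 3.14% and 4.87% of the cells of naïve, sham and SCI blood. The part of these shares in the IFNG differences was not tested.

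The wider pathway was read from a list of 34 further genes, of which 28 to 31 had at least 20 counts in a comparison. In SCI against sham blood 1 was past 1.5-fold upward (IFNG), where 5.72% of all genes were, and 7 downward, where 6.93% were. The median log2 ratio was -0.14 against 0.01 for all genes tested. Of the 17 target genes 16 lay below 0, where 52.9% of all genes lay above 0. Their median was -0.26, and 6 of the 17 were past 1.5-fold downward. ICAM1, an adhesion molecule, was at 2.60 against 6.48 CPM, WARS, a tryptophanyl-tRNA synthetase, at 17.6 against 38.2 CPM, and IDO1, which degrades tryptophan, at 4.69 against 10.1 CPM. In SCI against naïve blood 2 of 30 were past 1.5-fold upward and 5 downward (8.71% and 8.53% of all genes), and in sham against naïve blood 3 of 31 upward and 2 downward (6.77% and 6.1% of all genes). WARS was lower in both, at 38.2 CPM in sham and 17.6 CPM in SCI blood against 74.6 CPM in naïve blood, and VAMP5 higher, at 109 and 130 CPM against 50.03 CPM.

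Genes of the type I interferon response, read as a list of 16, lay on the same side as the GBPs in SCI against sham blood. All 16 lay below 0, where 52.9% of all genes lay above 0, and the median log2 ratio was -0.90. Of the 16, 12 were past 1.5-fold downward, where 6.93% of all genes were. IFIT1 stood at 69.8 against 176 CPM and RSAD2 at 54.5 against 128 CPM. In sham against naïve blood 15 of 16 lay above 0, where 60.7% of all genes did. Only 1 was past 1.5-fold upward, where 6.77% of all genes were. Which interferon the members answered to was not tested.

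The injured cord was set against the blood of the same injury group. SOCS1 stood at 313 CPM in the cord (332 UMIs) against 53.9 CPM in SCI blood, a 5.82-fold difference or a log2 ratio of 2.54 (2.36 to 2.72). IFNGR1 was 156 against 76.4 CPM, a ratio of 1.04 (0.79 to 1.26). Per CPM, though for GBP1 (0.62) and GBP2 (0.22) not as UMIs per cell, the cord was lower in GBP1 at 86.7 against 141 CPM, GBP2 at 118 against 251 CPM and GBP4 at 32.1 against 82.5 CPM. At the same time GBP3 (46.2 against 60.04 CPM), GBP5 (44.3 against 51.7 CPM) and IFNGR2 (53.7 against 58.2 CPM) were within counting error. IRF1 was at 255 against 298 CPM, a ratio of -0.23 (-0.41 to -0.05). Thus 2 members were past 1.5-fold upward, where 22.1% of 13390 genes were, and 3 downward, where 17.8% were.

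Those cord values over all cells followed the mixture of cells in part. The cord held 36 myeloid cells of 118 (21 monocyte-like and 15 basophil or mast-like) against 155 of 5934 in SCI blood, and these classes are low in GBPs and, for basophil or mast-like cells, high in SOCS1. With equal class weights the SOCS1 ratio was 0.98 and the summed GBP ratio -0.36, in place of -0.84. Equal weights average the CPM of the classes before the ratio is taken. The SOCS1 value therefore leans on basophil or mast-like cells, the class highest in SOCS1. Class by class the SOCS1 ratio was above 0 in 5 of 5 classes, the lowest at 0.56. Cord cells held more UMIs each, and as UMIs per cell the summed GBPs were higher in the cord at 0.47. The mean of all UMIs per cell outside ribosomal protein and mitochondrial genes was higher there by 1.31 on the log2 scale. At 1000 UMIs per cell GBP1 was also higher, at 0.41, but the shares of cells with a GBP1 UMI overlapped. They were 9.32% (4.75% to 16.1%) of 118 cord cells and 8.44% (7.75% to 9.18%) in SCI blood.

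T-like cells of the cord (CD4, Treg, naive, CD8 and cytotoxic), 67 in number, were therefore set against the 4471 of SCI blood. Their summed GBP level was 605 against 645 CPM, a log2 ratio of -0.09 (-0.28 to 0.09), within counting error for all T-like cells pooled. With equal class weights it was -0.29, and in CD8 T-like cells alone the summed GBPs were 392 against 617 CPM, a ratio of -0.63 (-1.26 to -0.11), on 27 cord UMIs from 11 cells. GBP5 was 100 against 62.3 CPM, a ratio of 0.71 (0.20 to 1.14), and GBP4 44.1 against 86.9 CPM, a ratio of -0.94 (-1.74 to -0.31). Treg-like cells held 26 of the 41 cord GBP5 UMIs, at 216 CPM in the cord against 211 in blood. IRF1 was level at 294 against 289 CPM.

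SOCS1 in T-like cells was 208 CPM in the cord (85 UMIs) against 37.2 CPM in SCI blood, 35.5 in sham and 45.3 in naïve blood, a log2 ratio to SCI blood of 2.49 (2.14 to 2.82). A single Treg-like cell with 17039 UMIs held 37 of those 85 UMIs. That cell carried all 8 basophil or mast markers (109 UMIs together) beside 9 of 11 Treg and CD3 markers, and no doublets could be marked in the cord because it had too few cells. Without it SOCS1 was 121 CPM (48 UMIs in 66 cells), a ratio of 1.72 (1.25 to 2.13) or 3.29-fold, and in Treg-like cells the ratio went from 3.502 to 1.37 (0.12 to 2.30). CD4 T-like cells, to which that cell did not belong, had 137 against 28.1 CPM, a ratio of 2.31 (1.57 to 2.94), and CD8 T-like cells 203 against 46.6 CPM, a ratio of 2.17 (1.23 to 2.91).

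SOCS1 was detected in 29 of 67 cord T-like cells (43.3%), and at 1000 UMIs per cell in 11.9% (5.30% to 22.2%) against 2.57% (2.13% to 3.08%) in SCI blood. Host barcodes of the cord held 0.033 SOCS1 UMIs each, compared with 1.27 per cord T-like cell. That mean includes the single Treg-like cell described above, without which 48 SOCS1 UMIs were left in 66 cells. The 8 basophil or mast markers summed to 279 CPM in cord T-like cells (114 UMIs, in 5 cells) against 4.80 CPM in SCI blood, 12.5 in sham and 13.3 in naïve blood, with TPSB2 at 0 in naïve blood and no other marker at 0. The cell described above held 109 of those 114 UMIs.

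IFNGR1 in T-like cells was 103 CPM in the cord against 49.6 CPM in SCI blood, a ratio of 1.07 (0.57 to 1.502), and 0.81 (0.25 to 1.29) without that cell. It was above 0 in 5 of 5 classes compared, 2 of them beyond counting error. IFNGR2 in T-like cells rested on 8 cord UMIs and was within counting error. Within T-like cells 3 members (SOCS1, IFNGR1 and GBP5) were past 1.5-fold upward, where 21.8% of 12007 genes were, and 1 (GBP4) downward, where 15.2% were. Counts this small, out of 9, do not set the members apart from the background, and SOCS1 was the member furthest from 0.

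**Figure D5:**
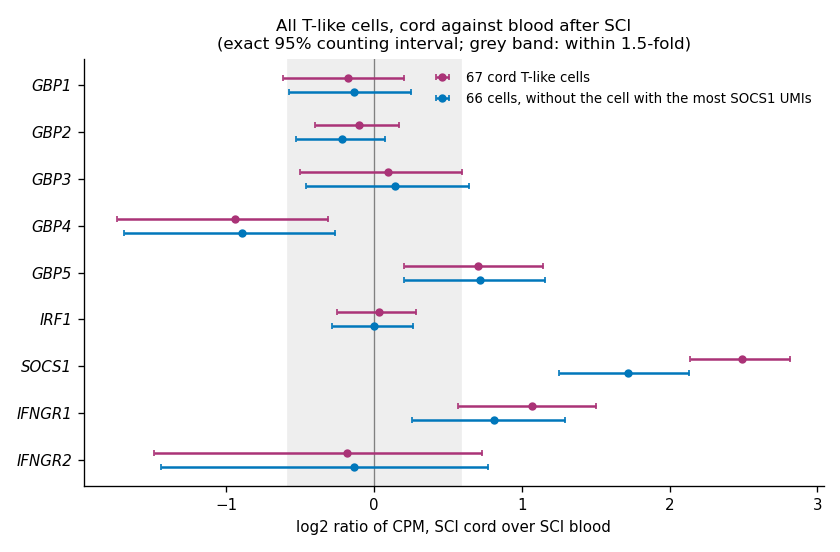
Log2 ratio of CPM of each member in T-like cells, SCI cord over SCI blood, with exact 95% counting intervals, for all 67 cord cells and for the 66 left without the cell with the most SOCS1 UMIs; the grey band marks ratios within 1.5-fold. SOCS1 moves from 2.49 to 1.72 and IFNGR1 from 1.07 to 0.81, and GBP4 lies below 0 in both.

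Myeloid cells of the cord gave a second reading. Basophil or mast-like cells held 1310 CPM of SOCS1 (171 UMIs in 15 cells) against 890 CPM in SCI blood, a ratio of 0.56 (0.29 to 0.82), but 12 of the 15 cord cells belonged to the smaller cluster and 90 of the 131 blood cells to the larger one. Cluster by cluster the level was 1210 against 478 CPM in the smaller and 1815 against 1139 CPM in the larger, where the cord had 3 cells. Over both clusters their IRF1 was 153 against 332 CPM, a ratio of -1.08 (-1.87 to -0.44), and their summed GBPs 30.6 against 131 CPM, on 4 cord UMIs. Within the smaller cluster the intervals overlapped, with IRF1 at 147 CPM (83.8 to 238) against 205 CPM (143 to 283) and summed GBPs at 36.7 CPM (9.99 to 93.9) against 56.8 CPM (27.3 to 105). Monocyte-like cells had IFNGR1 at 246 against 158 CPM, a ratio of 0.63 (0.03 to 1.29), and SOCS1 at 177 against 118 CPM, a ratio of 0.56 (-0.14 to 1.34). This class kept 21 cord cells at both other clustering resolutions, but not under every setting. With genes not centred it held 10 cord cells, and 15 cord cells fell in an eosinophil-like cluster. Without the filter on outlying cells these numbers were 9 and 18. What this does to the monocyte-like ratios was not tested.

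Genes known to respond to tissue dissociation were higher in the cord too. A list of 11 such genes summed to 4214 CPM in the cord against 1371 CPM in SCI blood, with 8 of 11 past 1.5-fold upward and a median log2 ratio of 1.93, and within T-like cells to 3584 against 1345 CPM; their part in the SOCS1 and IFNGR1 values was not tested. Of the 28 further pathway genes with enough counts 6 were past 1.5-fold upward, where 22.1% of all genes were, and 4 downward, where 17.8% were, so as a list they did not stand above the background. The 4 genes named by size were ICAM1 at 31.1 against 2.60 CPM in SCI blood, IDO1 at 25.5 against 4.69 CPM, WARS at 51.8 against 17.6 CPM and, lower in the cord, VAMP5 at 69.8 against 130 CPM. JAK1 was lower, at 299 against 507 CPM.

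IFNG in the cord rested on 12 UMIs in 5 cells, 11.3 CPM against 6.59 CPM in SCI blood, a log2 ratio of 0.83 (-0.21 to 1.63). Of those 12 UMIs, 7 were in cytotoxic T-like cells and 3 in a single monocyte-like cell, so at this depth a difference over all cells was not detectable.

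The genes whose pattern over 27 pairs of class and library was most like that of each member were found among 11030 candidates. SOCS1 was closest to PIK3R6 (Pearson r = 0.96), SLC18A2 (0.95) and CNBP (0.95), IFNGR1 to ADPGK (0.96), PPP1R9B (0.93) and NOTCH2 (0.93), and IFNGR2 to DOK3 (0.89), RIPK2 (0.88) and STK3 (0.88). GBP1 was closest to WNK1 (0.94), GBP2 to AES (0.94), GBP3 to GPR155 (0.90), GBP4 to PAIP2 (0.94), GBP5 to SEMA3G (0.81) and IRF1 to HELZ2 (0.85). Among the members GBP1 and GBP2 ran closest together (0.93), GBP5 less so with the other GBPs (0.37 to 0.57), and IFNGR1 and IFNGR2 at 0.66. These correlations describe pairs that share libraries and depth, and carry no test.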

How the data were processed

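Sorted human cells of 3 blood groups (naïve, sham, SCI) and of the SCI cord were profiled as 3′ single-cell libraries (v3 chemistry), sequenced together in 1 run. The deposited values are UMI counts per gene and barcode, made by the authors with CellRanger 3.1.0 against the genomes of both species (GRCh38 and mm10); 22830 barcodes were deposited, and 18106 had over 50% human UMIs. GBP paralogues are alike in sequence, so counts of one copy against another are uncertain.

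Here, cells more than 3 median absolute deviations below the library median in log UMIs or log genes were dropped. Cells as far above the median in mitochondrial or ribosomal share were dropped too, as were doublets marked by Scrublet above 3000 genes, leaving 17024 cells. Doublets were not marked in the cord. Cells were clustered (Leiden, resolution 0.8, 2000 variable genes, 30 components, 15 neighbours, genes centred within each library, interferon genes left out) and named "-like" from markers; rules for ties were settled after the clusters were seen. UMIs were summed per library and class and divided by the total outside ribosomal protein and mitochondrial genes. Ratios carry a prior count of 0.5, classes needed 10 cells and 20 UMIs, and 1.5-fold was the cut for a call. Genes named in the text were the 9 members, IFNG, JAK1 and JAK2, up to 4 other pathway genes and up to 2 genes of each other list per comparison with the largest ratios among those with at least 50 counts, and the 3 genes most like each member by Pearson r of log2(CPM + 10) over groups of at least 50 cells. A result for 1 further gene is not reported here. Members and lists were chosen with earlier results of these data known. With 1 library per group there was no test; alternatives, including TMM factors from edgeR 4.0.16, are in the closing section. Python 3.11.15, scanpy 1.11.5 and igraph 0.11.9 were used, and the ratio code was checked on simulated counts.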

Additional observations from a re-analysis of the deposited data

Results flagged for a closer look

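GBP5 in SCI against naïve blood stood out because cell classes lay past 1.5-fold, beyond counting error, in opposite directions. It was higher after SCI in cytotoxic T-like cells, at a log2 ratio of 1.54 (0.98 to 2.16; 97 against 35 UMIs), and in CD4 T-like cells, at 0.66 (0.26 to 1.07). It was lower in monocyte-like cells, at -2.23 (-8.15 to -0.19; 1 against 27 UMIs), and in cycling cells, at -1.05 (-1.58 to -0.54). The difference between classes was not tested, since each group has 1 library, and the monocyte-like value rests on 24 cells after SCI.

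Signal outside the human cells was found in barcodes with at least 90% mouse UMIs. Mouse Gbp5 stood at 9.30 CPM of mouse UMIs (5.60 to 14.5; 19 UMIs in 92 barcodes) in the cord, above the upper bounds in naïve blood (1.32) and sham blood (4.13). These host barcodes came from a sort for human CD45 and differ in kind between libraries, with mouse haemoglobin genes at 87.5% of mouse UMIs in naïve blood, 23.1% in sham blood and 0% in the cord.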

How the results depend on the processing

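The summed GBP log2 ratio of sham against naïve blood (0.44) was 0.78 as UMIs per cell, 0.37 with TMM factors, 0.16 with equal class weights, 0.29 as the mean of per-cell CPM, 0.28 at 1000 UMIs per cell, 0.34 without immunoglobulin genes in the total and 0.17 without plasma-like cells. For SCI against naïve blood (0.11) these were 0.16, 0.029, -0.18, -0.081, -0.10, 0.013 and -0.16, and -0.011 with ribosomal and mitochondrial genes in the total. SCI against sham blood (-0.33) gave -0.61 as UMIs per cell, -0.37 as the mean of per-cell CPM, -0.37 at 1000 UMIs and -0.43 with ribosomal and mitochondrial genes. Cord against SCI blood (-0.84) turned to 0.47 as UMIs per cell, and was -0.36 with equal class weights, -0.61 as the mean of per-cell CPM and -0.61 at 1000 UMIs. GBP1 there (-0.69) turned to 0.62 as UMIs per cell and 0.41 at 1000 UMIs, and GBP2 (-1.08) to 0.22 as UMIs per cell. At 1000 UMIs the shares of cells with a GBP1 UMI overlapped between cord and SCI blood. UMIs per cell shift the median of all genes by 0.34, 0.06, -0.28 and 1.31 in these 4 comparisons.

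Members past 1.5-fold numbered 5 as UMIs per cell and 1 by per-cell CPM for sham against naïve blood (0 otherwise), 1 at 1000 UMIs for SCI against naïve blood (0), 3 as UMIs per cell, 2 at 1000 UMIs and 2 with ribosomal and mitochondrial genes for SCI against sham blood (1), and 3 with equal class weights for the cord (5). In T-like cells, cord against SCI blood, the summed GBP ratio (-0.09) was 0.79 as UMIs per cell and -0.29 with equal class weights, and SOCS1 (2.49) was 3.37 as UMIs per cell, 2.02 by per-cell CPM, 1.85 at 1000 UMIs, 1.76 with genes not centred before clustering and 1.72 without the cell with the most SOCS1 UMIs. The cause of each shift was not tested. The class contrasts of GBP5, GBP2, SOCS1, IFNGR1 and IFNGR2 kept their direction at both other clustering resolutions and without centring. Without the filter on low counts the share of genes past 1.5-fold in either direction was 32.3% against 12.9% in sham against naïve blood, 35.6% against 17.2%, 31.8% against 12.6% and 56.1% against 39.9% in the other comparisons. Settings that left out plasma-like or basophil or mast-like cells, or the 1 cord cell, were chosen after seeing the data. No paired analysis was possible because each group had 1 library, and no library could be left out. Depth limits the cord most: a count of 3 there is 2.83 CPM over all cells and 7.35 CPM in T-like cells.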

Other observations

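Mouse counterparts of the members were read in the same host barcodes, of which there were 1396, 1955 and 1214 from naïve, sham and SCI blood and 92 from the cord. Mouse Ifngr1 stood at 11.5, 347, 295 and 314 CPM of mouse UMIs in that order, Ifngr2 at 6.45, 186, 137 and 208 CPM, and Irf1 at 4.30, 110, 113 and 42.6 CPM. Gbp2 was 3.23, 72.1, 83.4 and 18.6 CPM. The naïve-blood values are low for all of them, and most of the mouse UMIs there were haemoglobin; sham and SCI blood were close to each other in Irf1 and Gbp2.

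In human NK-like cells, of which blood held 21 to 43 per library, IRF1 was 732, 569 and 486 CPM in naïve, sham and SCI blood, the highest of any class in each of these libraries, with 32, 32 and 48 UMIs. JAK1 was also highest in NK-like cells, at 1361 CPM as a mean of the blood libraries.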
